A study of Schizosaccharomyces pombe with 5 samples.

Results

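The genes rep2 and res1 encode subunits of MBF, the MluI cell cycle box-binding factor of fission yeast (Schizosaccharomyces pombe). Both were found by coordinate overlap with the peak lists of a CLIP-Seq experiment, in which RNA is crosslinked to a tagged protein in living cells by UV light, purified with it and sequenced. The 2 genes lie under 2 of the 128 peaks listed for Mei2-TAP and under 0 of the 140 peaks listed for Msa1-TAP. Mei2 is the RNA-binding protein that switches cells into meiosis, and Msa1 is another RNA-binding protein that served as a control. The genes were chosen by the tags and folds of the Mei2 list, so the tag values below are a description and were not tested.

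All libraries came from homothallic (h90) cells of the ura4-D18 leu1-32 background that were shifted from rich to nitrogen-poor medium to enter meiosis. The labels give 4 h of starvation, and the protocol for growth lists 4, 5 and 6 h. The paper's methods give 4 to 5 h, while its results describe samples of 4 to 6 h as pooled. The Mei2-TAP and Msa1-TAP strains carry a C-terminal TAP tag on the protein named, linked to a KanMX marker, and the untagged strain has no tag and gives the background of the purification. The series has 2 Mei2-TAP, 2 Msa1-TAP and 1 untagged libraries, but 1 peak list was used for each protein, filed with 1 tagged sample and called against the same untagged library. Whether a list was made from that library alone or from a pool of both is not stated. No value below has a replicate check, and the comparisons of both proteins share their control. The Mei2-TAP list rests on 194019 tags, the Msa1-TAP list on 359942 and both on 252539 untagged tags, where a tag is a sequenced fragment and each read of a pair counts as 0.5. Intervals are at the 95% level and describe counting error alone. They may be too narrow even for that, because PCR copies of 1 molecule may each be counted.

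MBF binds the MluI cell cycle box in promoters and drives the genes of S phase, such as those for replication licensing and for ribonucleotide reductase. Cdc10 is its ankyrin-repeat core, Res1 and Res2 are the subunits that contact DNA, and Rep2 is a zinc-finger activator that works with them in growing cells. Rep1 is a related activator of meiotic cells, and Nrm1 and Yox1 hold the complex in check outside S phase. Cells that starve and mate leave the mitotic cycle in G1 and later replicate once more before meiosis.

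The 2 peaks sat in different parts of their genes. The rep2 peak, chrII:1717740-1718395, was 656 nt long and ran from nt 38 to nt 693 of the annotated transcript (plus strand, 1 exon, 1620 nt). It covered 484 nt of the 521-nt 5′ UTR, which is 92.9% of that UTR, crossed the start codon, and ended 172 nt into the coding sequence, within codon 58 of 219. The res1 peak, chrII:1233742-1233992, was 251 nt long and lay wholly in the coding part of exon 2 (plus strand, 2 exons, 3002 nt). It spanned nt 1157 to nt 1407 of the gene and codons 94 to 177 of 637, and it began 55 nt past the last base of the 127-nt intron. It held none of the 749-nt 5′ UTR, the start codon or the intron. Positions are those of the deposited lists in the ASM294v2 build, read against the RefSeq ASM294v3 annotation.

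The coding sequence under both peaks is shown because it lies at the listed coordinates, and because the base composition and the motif matches described further on can be read from it. Sequences are from RefSeq, ASM294v3, on the plus strand, which is the strand of both genes, in DNA letters and 5′ to 3′. In rep2 the capitals mark the start codon (chrII:1718224-1718395). In res1 they mark ACGCG, the core of the MluI cell cycle box (chrII:1233742-1233992).
rep2 coding part of the peak: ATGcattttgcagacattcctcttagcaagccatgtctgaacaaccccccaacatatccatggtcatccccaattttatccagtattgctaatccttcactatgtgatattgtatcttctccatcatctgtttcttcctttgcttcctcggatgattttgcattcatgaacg
res1 whole peak: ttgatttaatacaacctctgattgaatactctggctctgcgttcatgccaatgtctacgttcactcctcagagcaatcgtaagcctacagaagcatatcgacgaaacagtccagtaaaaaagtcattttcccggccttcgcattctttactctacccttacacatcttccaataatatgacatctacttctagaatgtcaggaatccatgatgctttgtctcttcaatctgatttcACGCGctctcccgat

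From the 5′ UTR of rep2, 2 sites of 30 nt are shown, because they hold the matches to the hexamer bound by Mmi1, the YTH-family protein that marks meiotic transcripts for removal in growing cells and that the Mei2-meiRNA complex sequesters. Capitals mark TGAAAC in the first site (chrII:1717995-1718024), and in the second (chrII:1718057-1718086) they mark TTAAAC as it reads from the opposite strand.
rep2 first site: aacaggagtgatTGAAACtatcgtttttgg
rep2 second site: ttgtttttttgtGTTTAAttcgcacttttt

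**Figure D1:**
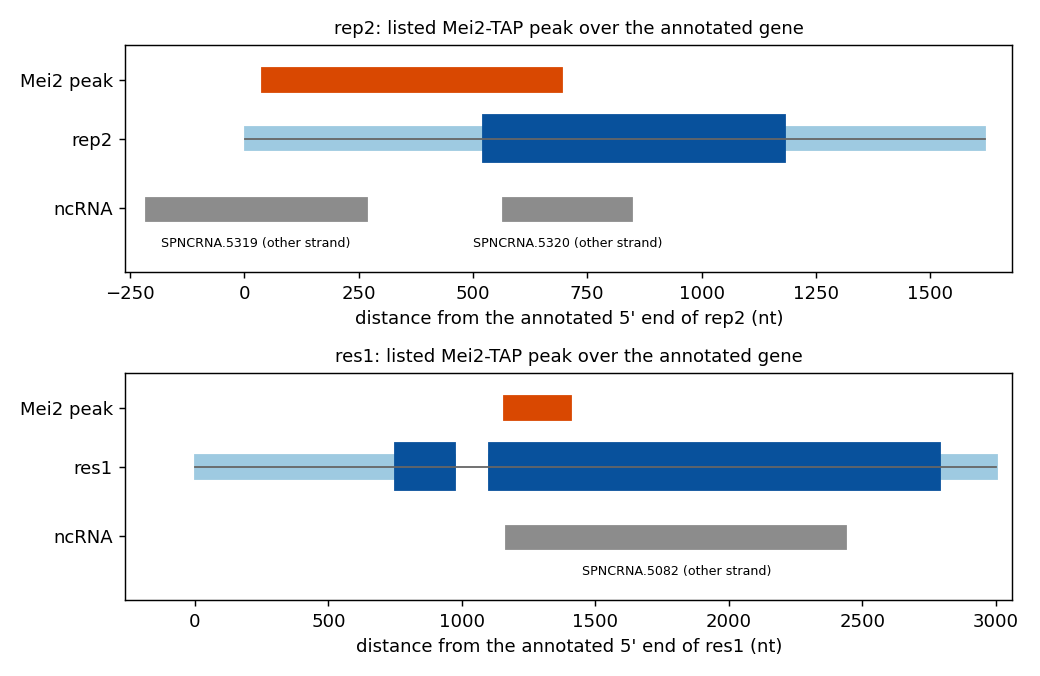
Maps of rep2 and res1 drawn to scale by distance in nt from the annotated 5′ end, with coding sequence as tall dark bars, UTRs as low light bars, the intron as a line, the listed Mei2-TAP peak in orange and non-coding RNAs of the other strand in grey. The rep2 peak covers 484 nt of 5′ UTR and 172 nt of coding sequence, and the res1 peak lies wholly in exon 2.

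The rep2 peak held 74.5 Mei2-TAP tags and 16.5 untagged tags. Scaled to 10000000 tags, this was 3840 in Mei2-TAP (3041 to 4846) and 653 in the untagged library (392 to 1078). The ratio of scaled tags was 5.88 (3.36 to 10.4), so that a ratio below the 4-fold threshold of the list lies within its counting error. The peak drew 0.0384% of all Mei2-TAP tags (0.0302 to 0.0482, exact binomial interval).

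The res1 peak held 20.5 Mei2-TAP tags and 5 untagged tags. Scaled in the same way, this was 1057 in Mei2-TAP (670.0 to 1655) and 198 in the untagged library (64.3 to 462). The ratio was 5.34 (2.01 to 18.6), whose interval is wider because it rests on 5 untagged tags. With tags left unrounded, an alternative added after seeing the data, its lower bound was 1.95.

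The 2 genes differed in the number of tags, while their ratios could not be told apart. rep2 had 3.63 times the Mei2-TAP tags of res1 and 3.30 times the untagged tags, so that both libraries held more of rep2. The quotient of the 2 ratios was 1.10, with an interval of 0.362 to 3.35 that leaves room for a difference in either direction. Part of the gap in tags goes with the length of the peaks, since per 100 nt rep2 had 11.4 and res1 8.17 Mei2-TAP tags, 1.39 times as many. In the untagged library the values per 100 nt were 2.52 and 1.99.

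**Figure D2:**
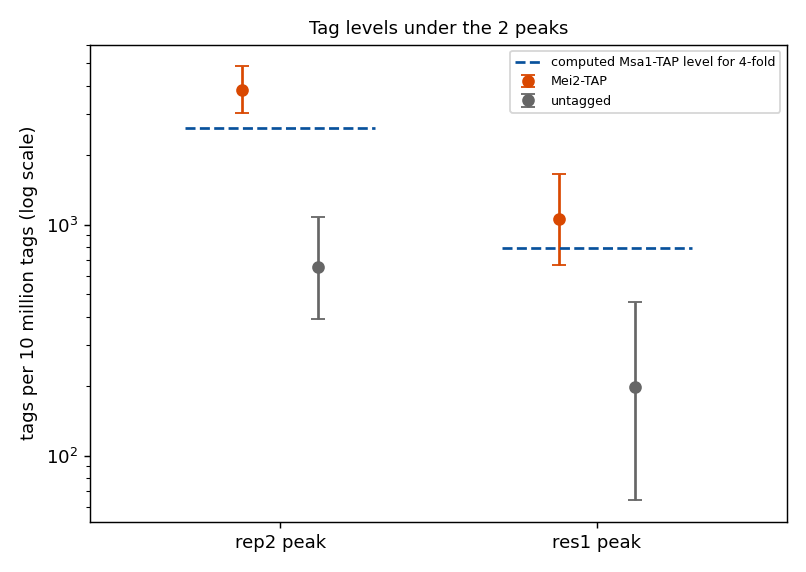
Tags per 10000000 tags (log scale) under the rep2 and res1 peaks, as points with 95% counting intervals for Mei2-TAP (orange) and untagged cells (grey), with a dashed line at the computed, not measured, Msa1-TAP level that would be 4-fold over untagged. Mei2-TAP stands at 3840 against 653 at rep2 and at 1057 against 198 at res1, and the dashed lines lie at 2613 and 792.

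Among the 128 Mei2 peaks, rep2 stood high by tags and in the middle by fold. It ranked 13th by Mei2-TAP tags, 10th by length and 63rd by fold, and res1 ranked 39th by tags, 42nd by length and 75th by fold. The median peak had 13.25 tags, a length of 200 nt and a deposited fold of 5.86, next to deposited folds of 5.88 for rep2 and 5.34 for res1. By HOMER's own p-value against the control, which is a Poisson value without replicates and not adjusted, rep2 ranked 15th (4.76e-32) and res1 52nd (5.27e-09). Ordered by the lower bound of the ratio, they ranked 16th and 45th. Of all 128 intervals, 8 lay wholly above 4, and neither gene was among them. The untagged library had fewer tags than at rep2 under 117 of the peaks and fewer than at res1 under 90.

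The peaks most like rep2 in both libraries were the one at srk1, which encodes a stress-activated kinase that inhibits Cdc25, with 75.5 against 17 tags, one at leu2, an enzyme gene of leucine synthesis, with 72 against 14.5, and the second peak of mmi1, with 66 against 15. Their ratios were 5.78, 6.46 and 5.73. Likeness was the distance in log2 tags over the Mei2-TAP and untagged libraries, after adding 0.5 tags, so that like ratios follow from the choice. Most like res1 were the peaks at SPNCRNA.4826 (19.5 against 5 tags), at SPNCRNA.2945 together with bdf2, a bromodomain protein gene (18 against 5), and at msn5, a gene of the nuclear transport receptor family (18.5 against 5.5). Their ratios were 5.08, 4.69 and 4.38.

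**Figure D3:**
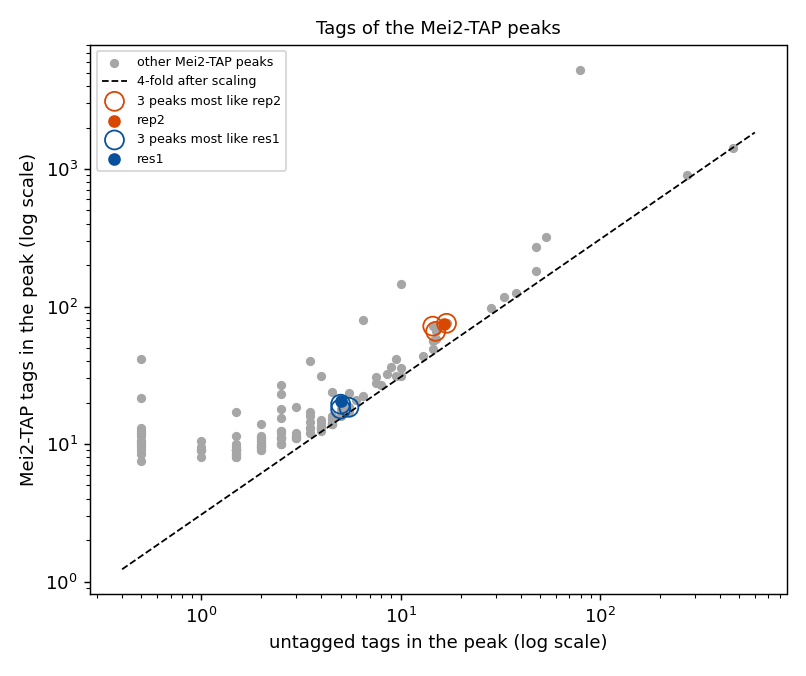
Mei2-TAP tags against untagged tags for the 128 Mei2 peaks (both axes logarithmic), with rep2 and res1 as filled coloured points, the 3 peaks most like each as open rings and the 4-fold line dashed. rep2 (74.5 against 16.5) and res1 (20.5 against 5) lie close above the line, among other peaks with the same background.

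By place in the gene, rep2 belonged to a small class. Of the 111 Mei2 peaks assigned to coding genes, 90 had their midpoint in coding sequence, as res1 did, 11 in a 3′ UTR, 4 in an intron and 6 in a 5′ UTR. The 5′ UTR peaks were those of mmi1 (80 against 6.5 tags, 16.0-fold), srk1 (75.5 against 17, 5.78-fold), rep2 (74.5 against 16.5, 5.88-fold), aim29 (18 against 2.5, 9.37-fold), rga3 (13.5 against 4, 4.39-fold) and cyr1, the adenylate cyclase gene (11 against 2.5, 5.73-fold). They fell into 3 peaks of 74.5 to 80 tags and 3 of 11 to 18 tags, and rep2 was the longest of the 6. rga3, aim29 and cyr1 are named because they share this class, which was noticed after their values were seen. In the Msa1 list, 22 of 111 such midpoints were in a 5′ UTR. rep2 was also 1 of 17 Mei2 peaks that covered a start codon, against 18 in the Msa1 list.

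Measured along the whole gene, the midpoint of the rep2 peak lay at 22.5% of the length from the 5′ end and that of res1 at 42.7%. Of the 111 Mei2 peaks on coding genes, 24 lay nearer the 5′ end than rep2 and 44 nearer than res1, and the median was 51.3%. Both genes have long leaders. The 5′ UTR of 521 nt at rep2 was at the 94.9th percentile and that of 749 nt at res1 at the 97.3rd percentile of 5113 coding genes, whose median was 79 nt. Among the 100 coding genes assigned a Mei2 peak the median was 134.5 nt. A long leader was thus shared by both genes, but only in rep2 did the listed peak lie over it.

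**Figure D4:**
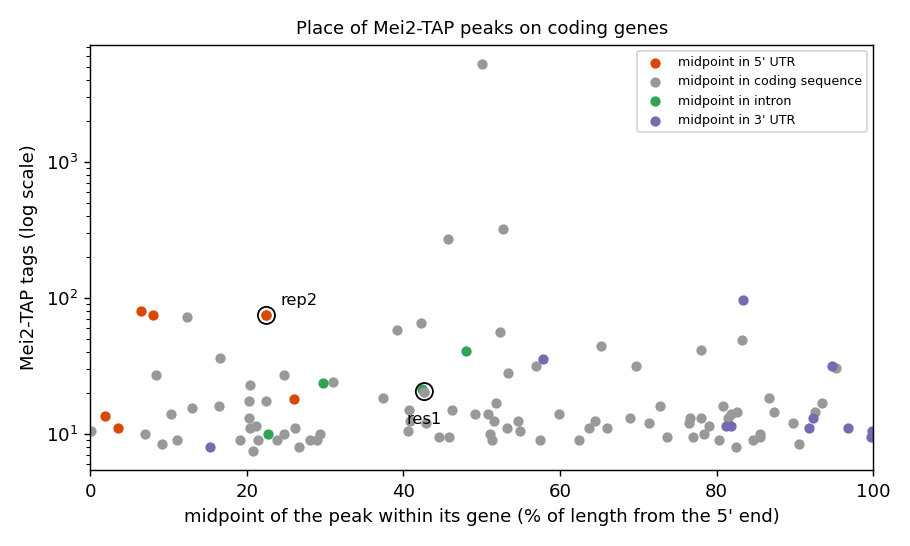
Mei2-TAP tags (log scale) against the midpoint of each of the 111 Mei2 peaks on coding genes, as a percentage of gene length from the 5′ end, coloured by the part of the gene under the midpoint, with rep2 and res1 ringed. rep2, at 22.5%, is 1 of 6 peaks with a midpoint in a 5′ UTR, and res1, at 42.7%, is 1 of 90 in coding sequence. The uppermost point is the peak over meiRNA, which the longest-overlap rule assigned to the coding gene aga1.

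Non-coding RNAs are annotated on the other strand at both genes, and the lists do not say which strand was recovered. The strand column of the lists is plus for all peaks. SPNCRNA.5319 lay under the first 230 nt of the rep2 peak (35.1% of it) and SPNCRNA.5320 under 128 nt at its coding end (19.5%). This left 298 nt (45.4% of the peak) where rep2 was the sole annotated gene, all of it between the 2 non-coding RNAs. At res1, SPNCRNA.5082 lay under 242 of the 251 nt (96.4%), so that 9 nt belonged to res1 alone. How many of the tags came from either strand was not measured. Such overlap was common, with 76 of the 128 Mei2 peaks over genes on both strands.

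Neither gene had a peak in the Msa1 list, and none lay within 500 nt of either. The nearest Msa1 peak was 143926 nt from rep2, over 3 non-coding RNAs (SPNCRNA.1448, SPNCRNA.5242 and SPNCRNA.358), with 11 Msa1-TAP against 1 untagged tag. At res1 it was 6918 nt away, over tsp0 and php2, the latter encoding a subunit of the CCAAT-binding factor, with 51.5 against 8 tags (4.52-fold, 2.15 to 11.1). The list gives no Msa1-TAP tags outside its peaks, and a region can be left out of it for its fold, its p-value or its surroundings, so the Msa1-TAP level at either gene is not known. With 16.5 untagged tags in the span of the rep2 peak, 94.1 Msa1-TAP tags would make the 4-fold of the list, while 23.5 tags would equal the untagged level. The corresponding values at res1 were 28.5 and 7.13 tags. These are computed thresholds and not measurements. Whether Mei2-TAP recovered more RNA of either gene than Msa1-TAP did can thus not be read from the lists used here. The paper made this comparison in a separate peak call with Msa1-TAP as the control, whose tags were not used here. To count as a CLIP-Seq target there, an RNA had to be among the top peaks by p-value against each control. By p-value against untagged cells in the list used here, rep2 ranked 15th and res1 52nd. How res1 stood against Msa1-TAP was not examined. Among the targets that the paper holds with high confidence, found by RIP-CHIP too, it names rep2 and does not name res1.

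Of the neighbouring Mei2 peaks, the closest to rep2 lay 10256 nt away over gua1 (17.5 against 5.5 tags, 4.14-fold, 1.48 to 12.0). The closest to res1 lay 72919 nt away over snoU14, a box C/D snoRNA, with 899.5 against 273 tags. The 2 genes of interest are both on chromosome II, which held 48 of the 128 peaks.

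Within the MBF complex and its regulators, 2 of 7 genes, rep2 and res1, lay under a Mei2 peak. Across the genome 1.56% of all annotated genes and 2.25% of coding genes did so. The count is not independent evidence, because the 2 genes were chosen for these peaks. The other 5 genes had no Mei2 peak. The nearest one was 31425 nt from cdc10, 51193 nt from res2, 27880 nt from rep1, 58408 nt from yox1 and 9841 nt from nrm1. The core subunit, the second DNA-binding subunit and the meiotic activator were among these 5. At the shares above, the lack of a peak over these 5 genes is no result about the complex. For yox1, the paper does report recovery with Mei2 by RIP-CHIP, though not by CLIP-Seq. None of the 7 lay under an Msa1 peak, where the shares were 1.73% of all genes and 2.54% of coding genes, and the nearest Msa1 peak was that 3732 nt from nrm1, over ufd1. At the stricter threshold of 5-fold with a deposited p of at most 1e-10, rep2 was listed and res1 was not.

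The other gene lists, also chosen with results of these data known, are given beside the same shares of 1.56% of all genes and 2.25% of coding genes with Mei2. With Msa1 the shares were 1.73% and 2.54%. Of genes that MBF is known to drive in S phase, 0 of 14, among them cdc18 and cdt1 for licensing of origins, cdc22 and suc22 for ribonucleotide reductase, and the cyclin gene cig2, lay under a peak of Mei2 or of Msa1, which at such shares is no result about MBF targets. The count was also 0 of 6 for early meiotic genes, including rec8, the meiotic cohesin subunit, and mei4, a meiotic transcription factor. Of genes for entry into meiosis, 12 of 14 were found in the annotation, and 2 of these, mmi1 and sme2, lay under Mei2 peaks. The 80-tag peak of mmi1 had a ratio of 16.0 (6.90 to 38.2). The locus of sme2, which gives rise to meiRNA, the RNA partner of Mei2, had 5277.5 Mei2-TAP against 79.5 untagged tags (86.4-fold, 68.9 to 108). It was the sole gene of the 50 found that also lay under an Msa1 peak, with 249 against 14 tags (12.5-fold, 7.30 to 23.2). The Mei2 and Msa1 peaks at sme2 both also lay over aga1, SPNCRNA.4673 and SPNCRNA.4674, and the Mei2 peak over mti2 too. The tags were not divided among these genes. The paper, by contrast, reports no enrichment of meiRNA with Msa1-TAP. Of 11 genes of G1 and G2 control, srk1 alone was listed, with Mei2. Over all 5 lists, 5 of 50 genes lay under a Mei2 peak, and rep2 and res1, which were chosen for their peaks, made up 2 of the 5. With Msa1 it was 1 of 50, which is near the shares over all genes and no result about these lists.

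In base composition the rep2 peak stood near the U-rich end of the list and the res1 peak in the middle. On the strand of the gene, U made up 41.9% of the rep2 peak and 31.5% of the res1 peak, ranks 5 and 64 of the 128 Mei2 peaks, whose median was 31.4%. This ranking mixes UTR and coding peaks. Across the genome the median was 39.0% in 5′ UTRs of at least 200 nt and 30.1% in coding sequences, so the rank of rep2 partly reflects its place. GC content was 35.8% and 41.8%, against a median of 39.8%. U was high in both parts of the rep2 peak, with 43.8% in the 5′ UTR part and 36.6% in the coding part printed above. For the whole coding sequence of rep2 the value was 29.2%, so its first codons held more U than the rest. The complete 5′ UTR of rep2 had 43.6% U, at the 83.4th percentile of 1216 5′ UTRs of at least 200 nt (median 39.0%). The longest run of U in the rep2 peak was 7 nt, at nt 358 of the gene and within the second printed site, and the peak held 6 separate runs of 5 U. In res1 the longest run was 4 nt. The other strong 5′ UTR peaks had 40.5% (mmi1) and 36.1% U (srk1). The weaker ones had 33.4% (aim29), 27.5% (rga3) and 30.5% (cyr1), so a high U content was not shared by all peaks of that class.

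**Figure D5:**
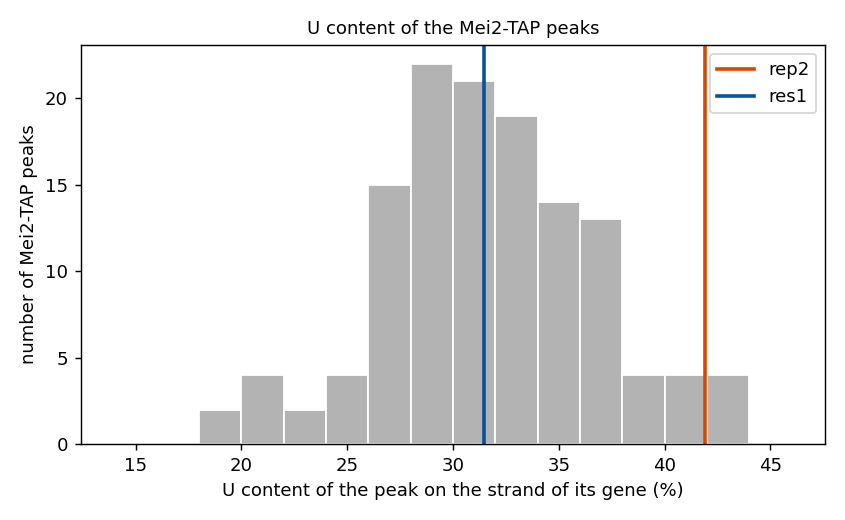
Histogram of the U content of the 128 Mei2 peaks, in percent on the strand of the assigned gene, with lines at rep2 and res1. rep2, at 41.9%, lies near the upper end, and res1, at 31.5%, lies at the middle of the distribution.

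The hexamer bound by Mmi1, TNAAAC with any base but A at N, was searched on both strands. The rep2 peak held 2, TGAAAC on the gene strand at nt 305 and TTAAAC on the other strand at nt 367, both in the 5′ UTR. The res1 peak held 0, while the whole res1 gene held 5, of which 4 were on the gene strand. For windows of the same lengths across the genome, 82.8% of those of 656 nt and 48.6% of those of 251 nt held a match, and 57.8% of the Mei2 peaks did. ACGCG, the core of the MluI cell cycle box, was also searched on both strands. It occurred 1 time in the res1 peak, in coding sequence, and 0 times in the rep2 peak, next to 12.5% of the Mei2 peaks and 8.07% of genome windows of 251 nt with a match. From 250 nt before to 50 nt after the annotated start, 0 matches were found in rep2, res1, res2, rep1 and cdc10 and 3 each in yox1 and nrm1, while 11.4% of all coding genes had one there. These are matches of letters and not measured binding sites.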

How the data were processed

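RNA bound to Mei2-TAP or Msa1-TAP in starved h90 cells was sequenced by the authors as strand-specific paired-end libraries (12 PCR cycles). Per the labels and methods, reads were mapped with STAR to ASM294v2, sorted with SAMtools, and wide peaks were called with HOMER against the untagged library; versions are not given in the sources used here. The methods and the labels name different temperatures. Per the file headers, the deposited tag signal is given per 10000000 tags, and the deposited estimated counts of tags come in steps of 0.5. The deposited fold is a ratio of scaled tags and is at least 4, the deposited p-value is HOMER's unadjusted Poisson value, and the deposited score was not used for any comparison. Authors' coverage tracks were not used here, and identical second copies of the lists were set aside.

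The Mei2-TAP and untagged totals were recovered from ratios of differently scaled tags. Of the low values of the untagged library, 111 of 111 fell on a 0.5-tag step, with a tolerance of 0.2 steps. The Msa1-TAP total was the smallest one searched that put its low values on 0.5-tag steps. Multiples of it would fit as well, so the Msa1-TAP tags and tag thresholds rest on that choice. Computed ratios were within 0.13% of the deposited folds. The Msa1-TAP total cancels from its ratios, as the untagged total does in the Mei2-TAP list, so this agreement does not check those totals. Intervals of ratios used the exact Clopper-Pearson method (SciPy 1.17.1) on tags rounded to whole numbers, and those of tag levels the exact Poisson limits. The interval of the quotient of 2 ratios used the log-normal approximation on 4 tag counts. The recovery of totals from scaled tags and the Clopper-Pearson interval were tested on simulated data. The step search for the Msa1-TAP total, the Poisson limits and the log-normal interval were not. Genes and sequences came from RefSeq ASM294v3. Its chromosome names are those of the lists, and 162 of 167 gene models of the authors' ASM294v2 annotation (61 of 62 on chromosome II) keep an exact end there. A peak was assigned to a gene by an overlap of 1 nt on either strand, and for positions to the gene with the longest overlap.

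Named genes were rep2 and res1, listed genes under a peak, the 3 most similar Mei2 peaks of each, genes under the same peaks and the nearest listed peaks. The members and gene lists were chosen with earlier results of these data known. No test was run, since each protein has 1 list with no values by replicate, and whether a list rests on 1 library or on a pool is not stated.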

Additional observations from a re-analysis of the deposited data

How the results depend on the processing

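For 19 results, 45 values were computed under alternative settings, of which 40 stayed the same, 5 moved and 0 reversed. Many of the 40 could not move, so their number is no measure of robustness. A gene count of 0 stays 0 under a stricter overlap or threshold, and a change of interval method leaves the ratio itself as it was. Adding 1 tag to each library gave ratios of 5.62 for rep2 and 4.66 for res1, and leaving the meiRNA peak out of the Mei2-TAP total gave 6.04 and 5.49. Counting reads in place of tags narrowed the intervals to 4.01 to 8.85 and 2.63 to 11.9, which put that of rep2 above the 4-fold threshold. The reads of a pair are not independent, so these intervals are too narrow. The values that moved were counts. At 5-fold with a deposited p of at most 1e-10, 1 MBF gene in place of 2 lay under a Mei2 peak. For genes of entry into meiosis, an overlap of at least 50% of the peak or the longest overlap alone left 1 under a Mei2 peak, and the first of these left 0 under an Msa1 peak. With motifs counted on the gene strand only, the rep2 peak held 1 Mmi1 hexamer in place of 2. No paired analysis was possible because each protein has 1 list without values by replicate and no result comes from a test, and for the same reason no replicate could be left out. Depth limits the ratio of res1, which rests on 5 untagged tags.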
